A study of Mus musculus with 768 samples.

Results

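Potassium channel genes were followed across the Schwann cell states of the mouse sciatic nerve at postnatal day 5. The members are the protein-coding genes whose symbol begins with Kcn in the mouse annotation (GENCODE vM21, GRCm38). This rule found 94 of the 25700 genes counted in the study. Cells came from P0Cre-/+ : ReYFP Tg/+ : βAct-DsRed Tg/+ pups on a C57bl/6J background, in which the Cre recombinase is driven by a promoter of the Schwann cell lineage and switches on a yellow fluorescent reporter (eYFP) there. All pups carried these alleles, and no untreated or mutant control belonged to the comparison. Dissociated cells positive for eYFP were sorted singly into 2 plates with 384 positions each and sequenced by Smart-Seq2, which covers whole transcripts but keeps neither strand information nor molecular identifiers. Each plate held cells of a suspension pooled from 1 male and 1 female mouse and was 1 biological replicate, so that n = 2 plates throughout and the wells of a plate are not replicates.

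Potassium channels let potassium pass through the membrane and set its resting potential. The voltage-gated (Kv) subunits open on depolarisation, inward rectifiers (Kir, Kcnj genes) conduct near the resting potential, tandem-pore-domain (K2P, Kcnk) subunits give background leak, and the calcium-activated channels (Kcnma and Kcnn genes) open when intracellular calcium rises. Auxiliary subunits bind the pores and change how they gate or travel. In myelinated nerve, Kv channels of the Kcna group are best known from the axon beneath the juxtaparanodal myelin. Kir channels are known from glia, which take up potassium released by active axons, and Kv currents of cultured Schwann cells have been tied to their proliferation.

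Wells with at least 1500 detected genes outside the 4 corners of a plate were used, 325 on plate 1 and 330 on plate 2. They held between 3306 and 2495101 reads, with a median of 582414. States were set by genes that are not potassium channels. All wells are of 1 age, so rises and falls between states below are differences between groups of wells, not changes over time. A well was cycling if at least 3 of 10 mitosis genes had 5 reads or more. The others were immature if Ncmap, a gene of non-compact myelin, was below 10 reads per 1000000 reads of the well (CPM), intermediate if Ncmap reached this level and the myelin gene Pmp22 stayed below 30000 CPM, and myelinating otherwise. This gave, on plates 1 and 2, 32 and 25 cycling, 106 and 122 immature, 79 and 70 intermediate, and 108 and 113 myelinating wells. Reads were summed per plate and state, and the 8 sums held 13925435 to 98479212 reads. Deep wells weigh more in a sum, and myelinating wells were the deepest, with a median of 819462 and 719230 reads against 476354 and 418999 in immature wells. At least 3 of 5 general Schwann cell markers reached 5 reads in 639 of 655 wells. In no well did 3 markers of endothelial, pericyte, immune, neuronal, skeletal muscle or fibroblast-like cells do so, which allows a share of up to 0.458% each, and in 4 wells 3 of 4 perineurial markers did. The pericyte marker Pdgfrb reached 5 reads in 130 wells. It was at 40.2 to 44.6 CPM in intermediate and myelinating sums and at 0 to 8.21 CPM in the others. Cspg4 reached 5 reads in 64 wells, Csf1r in 39, Kdr in 22, Cd68 in 15, and Cldn5 and Acta2 in 1 each. Pecam1, Cdh5, Emcn, Rgs5, Myh11, Ptprc, Adgre1 and Lyz2 had no reads. Of the neuronal markers Rbfox3 and Syt1 had no reads, Snap25 had 5 reads or more in 11 wells, Nefm in 9 and Tubb3 in 29. Tubb3 was at 33 and 24.2 CPM in cycling, 17.6 and 24.3 in immature, 9.26 and 15.8 in intermediate and 3.13 and 2.80 CPM in myelinating sums. The summed fibroblast-like list ran from 1520 to 1783 CPM in immature and from 132 to 157 CPM in myelinating sums, of which the collagen gene Col3a1 made up 1498 to 1773 and 132 to 154 CPM. Dcn reached 5 reads in 19 wells, with 21.5 and 6.74 CPM in immature and 0 and 1.62 CPM in myelinating sums, Lum in 6 wells, Pdgfra in 2 and Pi16 in 1, and Dpt had no reads. The part of these genes in the values below was not tested.

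Most potassium channel genes had no or few reads in these wells. Of the 94 members, 37 had no read in the 655 wells, which allows up to 0.00711 CPM over all wells (3 counts of the total, counting error only). A further 21 had between 1 and 138 reads and fell below the expression filter, of which 8 had exactly 1 read. Of the other 13, 11 had more than 50% of their reads in a single well. The remaining 36 of 94 were tested, beside 13904 of all 25700 genes counted. By family, 14 of 40 voltage-gated pore genes, 10 of 17 auxiliary genes, 6 of 14 K2P genes, 4 of 8 calcium- or sodium-activated genes and 2 of 15 inward rectifier genes passed the filter. Levels were very uneven. Genes were compared on the scale of CPM per kb of exon, with all annotated exons of a gene merged (2235 bases for Kcnk1, 11906 for Kcna2). Transcript use was not measured, so levels and ranks between genes depend on the lengths taken. On this scale 3 genes (Kcna1, Kcnk1 and Kcnj10) made up 66.9% of the mean summed level of all members and 10 genes made up 94.9%. The 26 tested genes beyond these 10 lay between 0.0112 and 1.88 CPM per kb, with at least 5 reads in 3 to 69 wells each.

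The makeup of the repertoire differed between states. The summed level of all 94 members was 115 and 122 CPM per kb in cycling cells (plates 1 and 2), 127 and 133 in immature, 157 and 175 in intermediate and 201 and 213 in myelinating cells. K2P genes accounted for 1.92 and 3.22 CPM per kb in cycling, 13.5 and 8.80 in immature, 23 and 30 in intermediate and 120 and 128 in myelinating cells, and the plates of neighbouring states did not overlap. The increase after the immature state was that of Kcnk1. Without it, K2P genes were at 1.92 and 1.90 CPM per kb in cycling, 11.6 and 8.79 in immature, 5.0 and 7.07 in intermediate and 3.20 and 6.44 in myelinating cells. Calcium- or sodium-activated channels ran the other way. They were at 11.9 and 8.40 CPM per kb in cycling, 4.8 and 6.37 in immature, 0.0478 and 0.840 in intermediate and 0.0103 and 0.126 in myelinating cells. Voltage-gated pore genes were at 47.0 to 82.1 CPM per kb in all 8 sums and inward rectifiers at 14.9 to 48.6, both with their highest values in intermediate cells. Auxiliary genes were at 31.2 and 34.7 CPM per kb in cycling cells and at 9.30 and 9.23 in myelinating cells. These sums rest on few genes and were not tested.

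**Figure D1:**
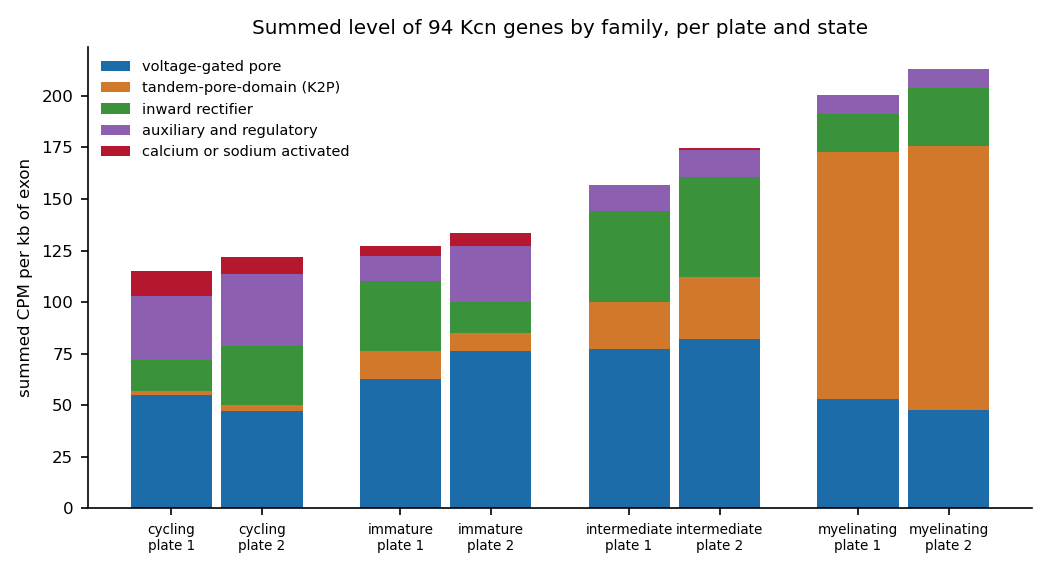
Stacked bars of the summed level of the 94 Kcn genes (vertical axis, CPM per kb of exon) in each of the 8 sums, by family. The K2P share grows from 1.92 and 3.22 in cycling cells to 120 and 128 in myelinating cells, while calcium- or sodium-activated genes are visible in cycling and immature cells.

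Which members differ between states was asked with edgeR over all 13904 genes that passed the filter, with p-values adjusted over all of them. Myelinating against immature cells gave 3 of the 36 tested members past the adjusted threshold of 0.05, Kcna6, Kcnh8 and Kcnn4, all lower in myelinating cells, where 5.14% of all genes tested were called in either direction. In the other comparisons no member was called. For cycling against immature cells the background was 2.58% of all genes. There 4 of 36 members had an unadjusted edgeR p under 0.05, beside 2142 of all 13904 genes. For intermediate against immature cells the background was 2.0%, with 7 members and 1523 genes at this unadjusted p. For myelinating against intermediate cells it was 0.784%, with 6 members and 1301 genes at this unadjusted p. DESeq2 called 2, 5, 3 and 7 members in cycling against immature, intermediate against immature, myelinating against intermediate and myelinating against immature cells, where it called 9.76%, 6.72%, 4.62% and 11% of all genes. In the same order, the median log2 change was -1.18, -0.53, -0.15 and -0.31 over the 36 tested members and -0.13, -0.03, 0.0026 and -0.04 over all genes, where fitted changes of genes without reads in a state depend on the prior count. The edgeR p-values rest on the spread between 2 plates over all 4 states, with 4 residual degrees of freedom. The quasi-likelihood fit draws the spread of each gene towards that of other genes, so the p-values also borrow from these. Scaling matters for small differences, because TMM scaling moved the log2 changes of all genes up, relative to plain CPM, by 0.10, 0.14, 0.25 and 0.38 in the same order of comparisons. CPM values below are plain, and fitted changes are on the TMM scale.

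**Figure D2:**
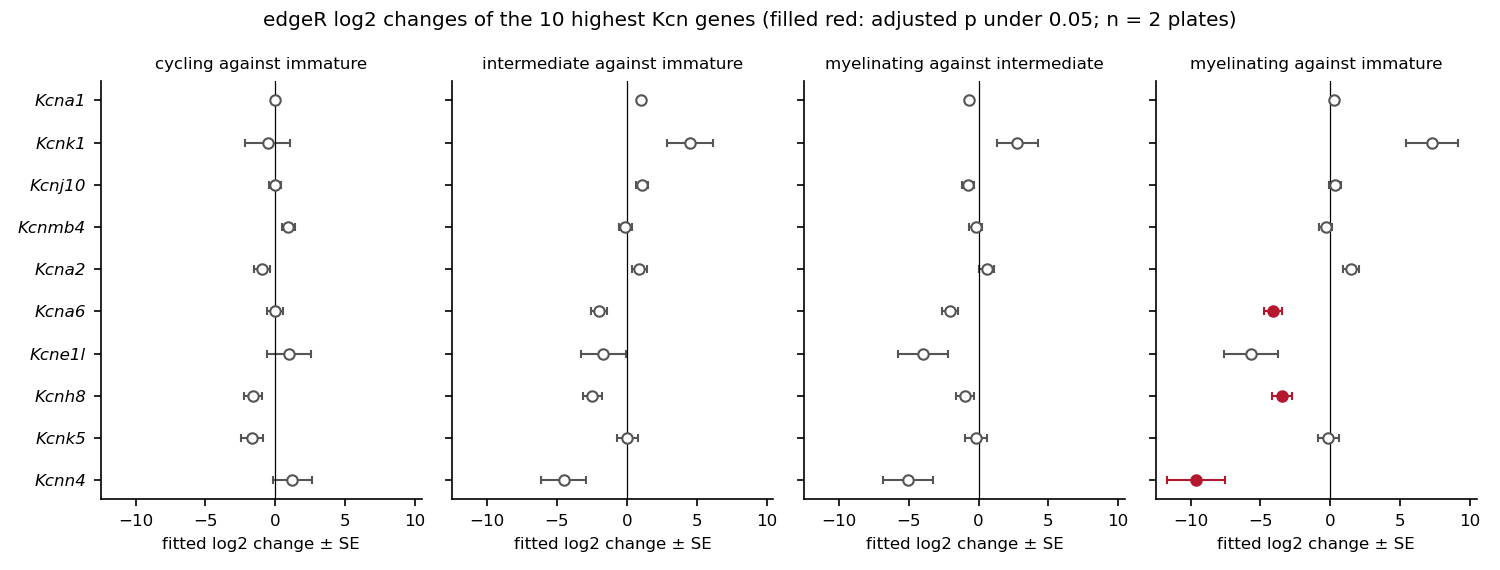
Fitted log2 changes (horizontal axis, points) with their standard errors (bars) for the 10 Kcn genes of highest level, in the 4 comparisons between states, n = 2 plates. Filled red points, Kcna6, Kcnh8 and Kcnn4 in myelinating against immature cells, had an adjusted p under 0.05. Kcnk1 has the highest positive change, 7.29 in myelinating against immature cells, with an adjusted p of 0.0641.

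Among the pore subunits of the Kcna group, 3 of 8 genes carried nearly all reads. Kcna1 (ENSMUSG00000047976, chromosome 6, 126640397 to 126646384, minus strand), a delayed rectifier subunit, was the member with the highest mean level, 39.8 CPM per kb, and had at least 5 reads in 459 of 655 wells. It was at 176 and 127 CPM in cycling, 156 and 169 in immature, 299 and 293 in intermediate and 148 and 156 CPM in myelinating cells. The intermediate sums stood above all others, whose plates overlapped or lay close together. Against immature cells the fitted change was 1.00 (SE 0.210), and its adjusted p of 0.0520 narrowly missed the threshold. The adjusted p ran from 0.00040 to 0.296 over the 21 alternatives and was below 0.05 in 8 of them. From intermediate to myelinating cells the change was -0.71 (SE 0.209, adjusted p 0.241). Between immature and myelinating cells no direction could be given, since the fitted change of 0.29 (adjusted p 0.595) stood beside -0.07 and -0.11 on the plain CPM scale of plates 1 and 2.

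Kcna2 (ENSMUSG00000040724, chromosome 3, 107101146 to 107115005, plus strand) codes for a subunit that can join that of Kcna1 in 1 channel. It was at 18.7 and 50.6 CPM in cycling, 41.0 and 101 in immature, 84.5 and 156 in intermediate and 166 and 135 CPM in myelinating cells. Pooled over plates, neighbouring states overlapped. Within each plate the order was cycling, immature and intermediate, from low to high, and myelinating cells were above intermediate cells on plate 1 and below them on plate 2. The change from immature to myelinating cells, 1.47 (SE 0.564), did not pass (adjusted p 0.235), and was past the threshold in 2 of 21 alternatives.

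Kcna6 (ENSMUSG00000038077, chromosome 6, 126708329 to 126740674, minus strand), a further delayed rectifier subunit of the same group, was lower in intermediate and myelinating than in cycling and immature cells. It was at 66.4 and 67.1 CPM in cycling cells, 59.8 and 82.3 in immature, 10 and 22.2 in intermediate and 4.69 and 1.80 CPM in myelinating cells. The cycling and immature sums overlapped, and the intermediate and myelinating sums lay below them without overlap. Of the 469 Kcna6 reads of intermediate plate 1, 254 came from 1 well. The log2 change from immature to myelinating cells was -4.07, with an SE of 0.645 and an adjusted p of 0.00717. It was -3.54 on plate 1 and -5.17 on plate 2, and the call held in all 21 alternatives. The step from immature to intermediate cells (-2.01, SE 0.590, adjusted p 0.179) and that from intermediate to myelinating cells (-2.06, SE 0.593, adjusted p 0.235) did not pass on their own. Of its exon bases, 39.6% overlap an antisense gene, Gm26673, which was not counted, and without strand information the reads of both cannot be told apart.

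Some of the other Kcna genes lie beside these 3. Kcna1 and Kcna6 are neighbours on chromosome 6, 61944 bases apart, with Kcna5 on the far side of Kcna1. Kcna2 lies on chromosome 3 between Kcna3 and Kcna10. While Kcna1, Kcna6 and Kcna2 had 78224, 12431 and 47889 reads, Kcna5 and Kcna3 had none and Kcna10 had 1. Kcna4 had 368 reads, of which 53.8% came from 1 well, and Kcna7 had none. The same held at the Kir pair on chromosome 1, where Kcnj10 had 63108 reads and Kcnj9, 11891 bases away, had none.

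Among the other voltage-gated genes only Kcnh8 and Kcnh2 had 5 reads or more in over 30 wells. Kcnh8 (ENSMUSG00000035580, chromosome 17, 52602709 to 52979194, plus strand), of the ether-a-go-go-like branch, was highest in immature cells. It was at 23 and 11.5 CPM in cycling, 57.5 and 53.4 in immature, 11.3 and 6.77 in intermediate and 4.67 and 3.11 CPM in myelinating cells. The immature sums stood apart from all others, and intermediate and myelinating sums did not overlap. From immature to myelinating cells Kcnh8 fell by 3.45 on the log2 scale, with an SE of 0.687 and an adjusted p of 0.0215. This call was lost when any of the 4 sums compared was left out, with adjusted p from 0.110 to 0.192, while the change stayed between -3.78 and -3.18. Against immature cells, cycling cells had a change of -1.58 (SE 0.640, adjusted p 0.286) and intermediate cells one of -2.47 (SE 0.659, adjusted p 0.129).

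Kcnh2 (ENSMUSG00000038319), best known as the delayed rectifier of heart muscle, was at 1.11 and 7.11 CPM in cycling, 14.6 and 9.69 in immature, 13.8 and 6.0 in intermediate and 15.6 and 4.88 CPM in myelinating cells, and no state stood apart. Kcnc1, a fast delayed rectifier gene, had 21 reads. Among the Kcnb, Kcnf, Kcng and Kcnv genes, Kcnb2 had 20 reads, Kcng1 had 1 and the others had none.

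**Figure D3:**
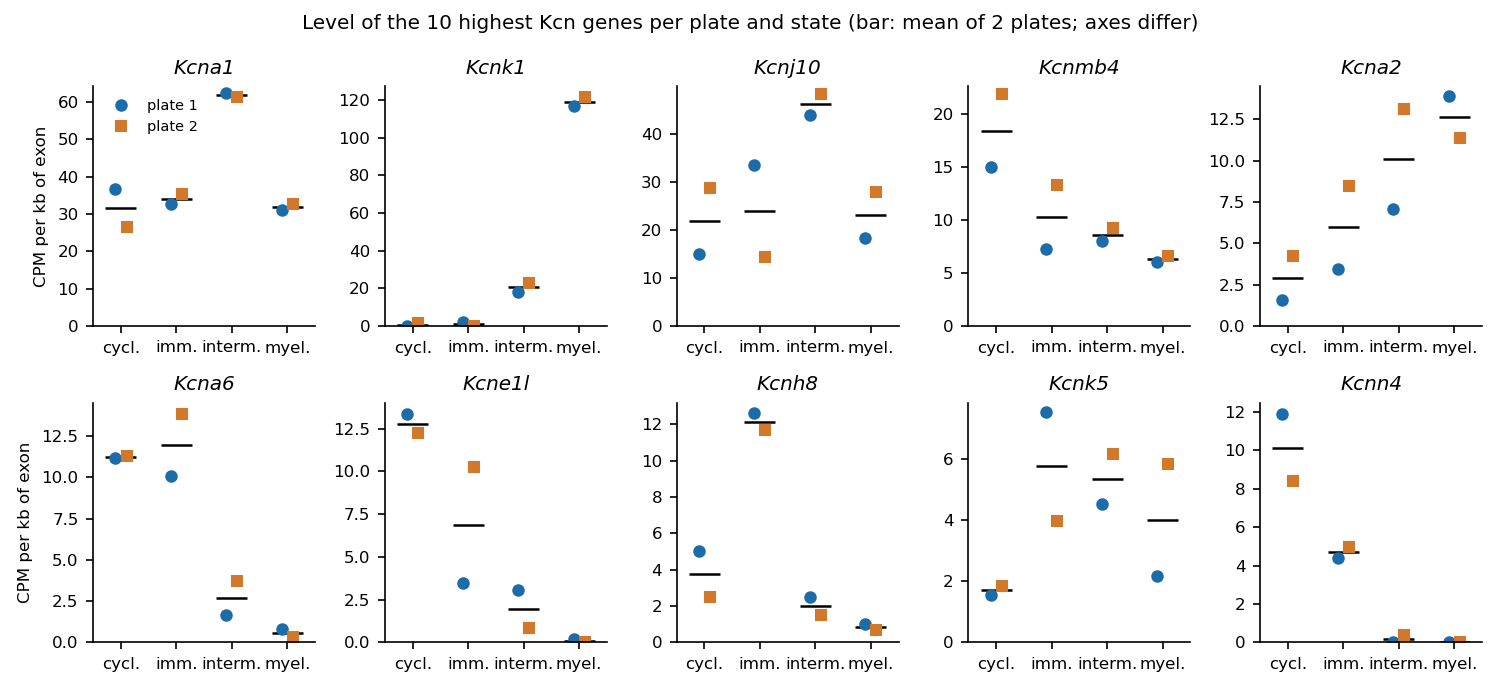
Levels (vertical axis, CPM per kb of exon, axes differ between genes) of the 10 Kcn genes of highest mean level in the 4 states, with 1 point per plate and a bar at the mean of 2 plates. Kcnk1 reaches 117 and 121 in myelinating cells, Kcna1 and Kcnj10 have their highest points in intermediate cells, and Kcna6, Kcnh8 and Kcnn4 are near 0 in myelinating cells.

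The inward rectifiers came down to 1 gene. Kcnj10 (ENSMUSG00000044708, chromosome 1, 172341210 to 172374085, plus strand), the main Kir channel of glia, was at 80.6 and 155 CPM in cycling, 181 and 77.8 in immature, 238 and 261 in intermediate and 98.9 and 151 CPM in myelinating cells. Intermediate sums lay above all others, whose plates overlapped. The change was 1.08 (SE 0.442, adjusted p 0.414) from immature to intermediate and -0.75 (SE 0.440, adjusted p 0.674) from intermediate to myelinating cells, and neither passed after adjustment over all genes. Unadjusted, the first had p = 0.0375 and the second p = 0.121 in the edgeR fit. The plates of immature cells differed by more than 2-fold. Kcnj2, the classical strong inward rectifier, had 4 reads and Kcnj8, the pore gene of vascular ATP-sensitive channels, had none in the wells used. The regulatory subunits Abcc8 and Abcc9 of these ATP-sensitive channels had no reads either.

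Kcnk1 (ENSMUSG00000033998, chromosome 8, 125995170 to 126030685, plus strand), a weakly conducting K2P channel, had the widest range between states in CPM. It had no reads in cycling plate 1 and 2.94 CPM in plate 2, 4.41 and 0.0334 CPM in immature, 40.1 and 51.3 in intermediate and 261 and 271 CPM in myelinating cells. Sums of the last 2 states lay far above the first 2 and did not overlap with each other. In myelinating cells it had 25742 and 23678 reads and, per kb, 119 ± 3.17 CPM (SD, n = 2), above Kcna1 at 31.8 ± 1.14. The fitted change from immature to myelinating cells was 7.29 (SE 1.85), with 5.74 on plate 1 and 8.99 on plate 2. Its adjusted p of 0.0641 did not pass. Immature cells held 238 Kcnk1 reads on plate 1 and 2 on plate 2. Without immature plate 1 the adjusted p was 0.0131, and it was 0.0222 under DESeq2, 0.00324 in wells thinned to 100000 reads and 0.0147 with the highest well of each sum left out. Over the 21 alternatives it ranged from 5.79e-08 to 0.110, with 7 below 0.05. An antisense gene, Gm45875, which was not counted, overlaps 8.01% of its exon bases.

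Kcnk5 (ENSMUSG00000023243), an acid-sensitive K2P channel, was at 5.33 and 6.32 CPM in cycling, 25.8 and 13.5 in immature, 15.5 and 21 in intermediate and 7.37 and 19.9 CPM in myelinating cells. The last 3 states overlapped, and cycling sums lay below them, by -1.65 (SE 0.787, adjusted p 0.360) against immature cells. Of the 1390 Kcnk5 reads of immature plate 1, 772 came from 1 well. Kcnk13 had 1208 reads, 583 of them in 1 immature well. Kcnk2 and Kcnk4, mechanically gated K2P channels that are known from the nodes of myelinated axons, had 547 and 635 reads in all. Kcnk4 shares 13.1% of its exon bases with Catsperz.

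Kcnn4 (ENSMUSG00000054342, chromosome 7, 24370263 to 24386690, plus strand), the intermediate-conductance calcium-activated channel, was read in cycling and immature cells. It had 1209 and 597 reads (60.8 and 42.9 CPM) in cycling, 1217 and 1522 reads (22.6 and 25.4 CPM) in immature, 0 and 81 reads in intermediate and 1 and 3 reads in myelinating cells. Cycling sums were above immature sums without overlap, but that change, 1.21 (SE 1.41), did not pass (adjusted p 0.739). Of the 597 reads of cycling plate 2, 307 came from 1 well. Kcnn4 fell from immature to myelinating cells (adjusted p 0.0318). The fitted change depends on the prior count here. The ratio of immature to myelinating CPM was 2222 on plate 1 (95% interval 398 to 87818) and 738 on plate 2 (252 to 3585), where the intervals cover counting error only. This call was lost when any of the 4 sums compared was left out (adjusted p 0.0549 to 0.106). All 81 intermediate reads came from 1 well.

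The big-conductance pore gene Kcnma1 had 64 reads, 93.8% of them in 1 well, whereas Kcnmb4 (ENSMUSG00000054934, chromosome 10, 116417861 to 116473878, minus strand), a beta subunit of that channel, was the fourth member by level. Kcnmb4 was at 49.9 and 72.6 CPM in cycling, 24.2 and 44.2 in immature, 26.6 and 30.6 in intermediate and 20 and 21.9 CPM in myelinating cells. Cycling cells were at the top and did not overlap with the others, by 0.95 (SE 0.460, adjusted p 0.367) over immature cells. Of the 1248 Kcnmb4 reads of intermediate plate 1, 669 came from 1 well. Its exons overlap by 10.7% and 20.8% with the antisense genes Kcnmb4os1 and Kcnmb4os2, which were not counted. Kcne1l (ENSMUSG00000090122), a single-pass accessory subunit, was at 20.6 and 18.9 CPM in cycling, 5.32 and 15.9 in immature, 4.69 and 1.30 in intermediate and 0.31 and 0 CPM in myelinating cells, and was read in 24 wells only. Its change from immature to myelinating cells did not pass (adjusted p 0.166). Kcnab2, the beta subunit that accompanies Kcna pores in axons, had 61 reads.

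Detection in single wells was compared at equal depth. Wells were thinned to 100000 reads, which left out 22 shallower wells, and a gene counted as detected from 5 reads. Kcnk1 was then found in 79.2% (95% interval 70.3 to 86.5) and 87.6% (80.1 to 93.1) of myelinating wells on plates 1 and 2, in 22.2% and 20.3% of intermediate wells and in 1.98% and 0% of immature wells, where 0 of 117 allows up to 2.56%. Detection in intermediate wells was thus partial. Before thinning, the median over intermediate wells with 5 reads or more was 208 and 205 CPM, beside 238 and 254 CPM in such myelinating wells. It was 263 CPM over the 2 such immature wells, both of plate 1, and 64.1 CPM in the 1 such cycling well, of plate 2. These medians are of wells chosen by their reads and do not describe a whole state. Kcna1 was found in 79.2% and 81.2% of intermediate wells, 48.5% and 52.1% of immature and 61.3% and 65.5% of myelinating wells. Kcnj10 was found in 54.2% and 68.1% of intermediate, 29.7% and 29.9% of immature and 37.7% and 51.3% of myelinating wells. For both genes the myelinating shares lay above the immature ones on both plates, whereas the CPM of the sums did not separate these states in the same way.

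Kcna2 detection was 21.8% and 26.5% in immature, 36.1% and 47.8% in intermediate and 65.1% and 60.2% in myelinating wells. Kcna6 went from 30.7% and 36.8% of immature wells to 8.33% and 13% of intermediate and 4.72% and 2.65% of myelinating wells. Kcnn4 was found in 25.8% and 16.7% of cycling, 9.90% and 10.3% of immature and 0 of 106 and 0 of 113 myelinating wells, which allows up to 2.83% and 2.65%. The median well had 2 or 3 detected members in every state, and the highest count was 6. Joint detection was set beside the product of the single shares. In myelinating wells Kcna1 and Kcna2 were both found in 45 of 106 and 44 of 113 wells, where independent detection would give 42.3 and 44.5. Kcna1 and Kcnk1 were both found in 53 and 66 wells, beside 51.5 and 64.8. Kcna6 and Kcnh8 were both found in 13 of 101 and 12 of 117 immature wells, beside 9.51 and 11. Kcna1 and Kcnj10 were both found in 14 of 101 and 24 of 117 immature wells, beside 14.6 and 18.2. In intermediate wells Kcna1 and Kcnk1 were both found in 11 of 72 and 14 of 69 wells, beside 12.7 and 11.4, and Kcnj10 and Kcnk1 in 6 and 9 wells, beside 8.67 and 9.54.

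**Figure D4:**
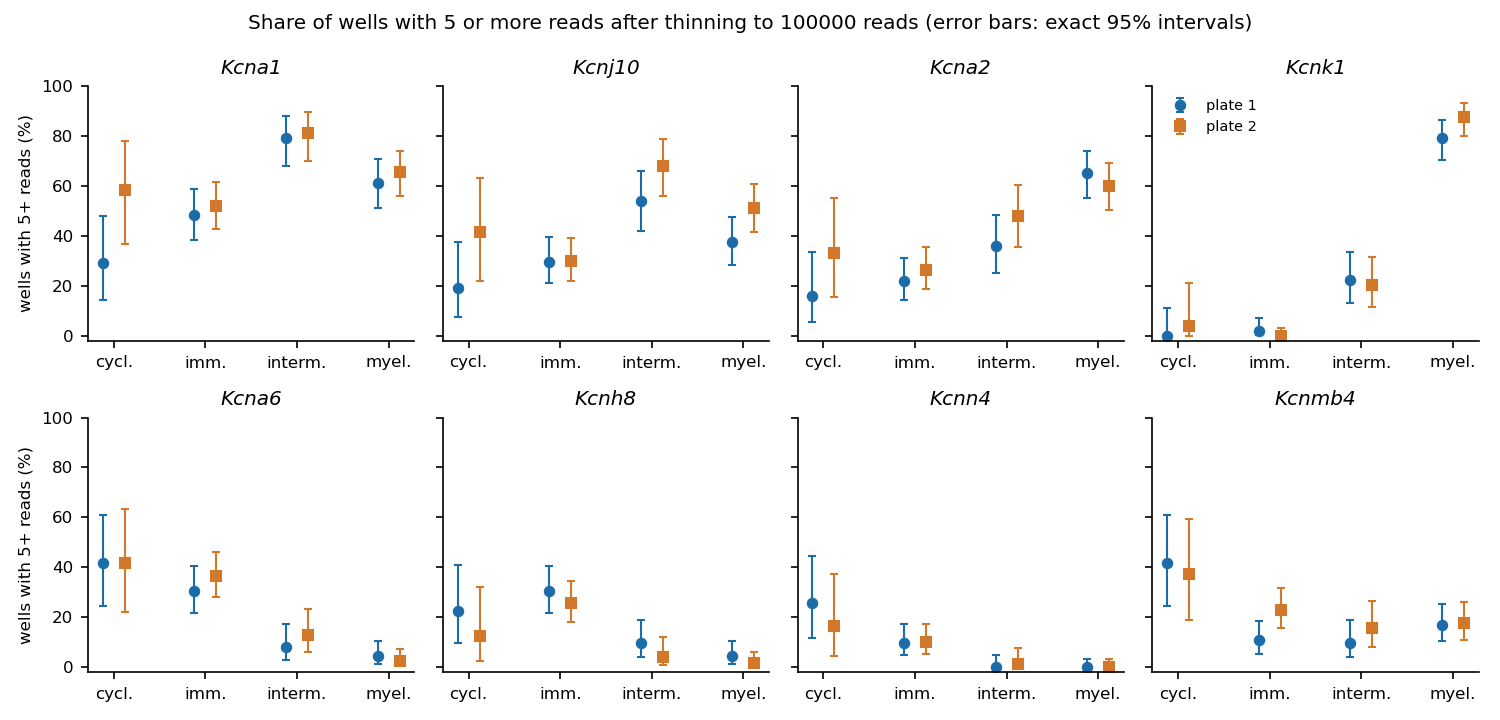
Share of wells (vertical axis, percent) with 5 or more reads of 8 Kcn genes after thinning each well to 100000 reads, by state, with 1 point per plate and exact 95% intervals for counting error. Kcnk1 goes from at most 4.17% in cycling and immature wells to 79.2% and 87.6% in myelinating wells, and Kcna6, Kcnh8 and Kcnn4 are below 5% in myelinating wells on both plates.

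Other genes that move potassium or partner with its channels were read from a list of 49 genes, of which 33 were tested. In myelinating against immature cells 5 were higher and 1 was lower, in intermediate against immature cells 4 were higher and 1 lower, in cycling against immature cells none was higher and 2 were lower, and in myelinating against intermediate cells none was called, beside 5.14%, 2.0%, 2.58% and 0.784% of all genes in these 4 comparisons. The last comparison had 5 at an unadjusted edgeR p under 0.05, beside 1301 of all 13904 genes. DESeq2 called 3 there, beside 4.62% of all genes. The list's median log2 change was 0.59 in myelinating and 0.34 in intermediate against immature cells, beside -0.04 and -0.03 over all genes. The members called belong to the sodium pump, the connexins and the kinases of cotransport.

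Fxyd6, a modulator of the sodium pump, was at 368 and 236 CPM in immature, 1963 and 1909 in intermediate and 2325 and 2183 CPM in myelinating cells, and rose to the intermediate state by 2.82 (SE 0.281, adjusted p 0.00141). To the myelinating state it rose by 3.28 (SE 0.286, adjusted p 2.63e-04). Fxyd1, another pump modulator, went the opposite way, from 181 and 199 CPM in immature to 24.6 and 52.5 in intermediate and 14.6 and 10.1 CPM in myelinating cells. It fell by 2.17 to the intermediate state (SE 0.391, adjusted p 0.0281). To the myelinating state it fell by 3.56 (SE 0.414, adjusted p 0.00130). The intermediate call was lost under 5 of 21 alternatives. The pump subunit Atp1b3 was at 416 and 292 CPM in immature and 817 and 768 CPM in myelinating cells, where it rose by 1.55 (SE 0.245, adjusted p 0.00717). Without immature plate 2 its adjusted p was 0.0512.

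Gjb1, the connexin of myelin incisures, was at 21.2 and 8.09 CPM in immature, 71.9 and 99.6 in intermediate and 153 and 173 CPM in myelinating cells, and had no reads in cycling cells. It rose by 2.69 (SE 0.484, adjusted p 0.0351) to the intermediate and by 3.86 (SE 0.510, adjusted p 0.00426) to the myelinating state. With the plate as a block the first of these had an adjusted p of 0.0646. Gjc3, a connexin of myelinating glia, was at 845 and 877 CPM in immature, 1741 and 1389 in intermediate and 1405 and 1361 CPM in myelinating cells. Against immature cells its fitted change was 1.00 (SE 0.162, adjusted p 0.0171) in intermediate and 1.07 (SE 0.162, adjusted p 0.00570) in myelinating cells. On the plain CPM scale the latter was 0.73 and 0.63 on plates 1 and 2. The myelinating sum of each plate lay below its intermediate sum. Stk39, a kinase that activates sodium-potassium-chloride cotransport, was at 33.1 and 39.9 CPM in immature, 92.9 and 107 in intermediate and 125 and 101 CPM in myelinating cells. It rose by 1.59 to the intermediate state (SE 0.299, adjusted p 0.0320). To the myelinating state it rose by 2.01 (SE 0.303, adjusted p 0.00539). With the plate as a block the former had an adjusted p of 0.0547. Leaving out single immature or intermediate sums ended the intermediate calls of Fxyd1, Gjb1, Gjc3 and Stk39 in 3, 3, 3 and 4 of 4 cases, and leaving out either myelinating sum ended that of Stk39 too. Of the myelinating calls, that of Stk39 was lost without immature plate 1 (adjusted p 0.0573) and without myelinating plate 1 (adjusted p 0.0581). Among the genes lower in cycling cells was Gjb1, and that direction reversed, to a change of 0.52, where cycling was set from 2 genes. The Kcna partners Cntn2 and Cntnap2, which anchor these channels beneath the myelin edge, had no reads and too few reads to test.

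**Figure D5:**
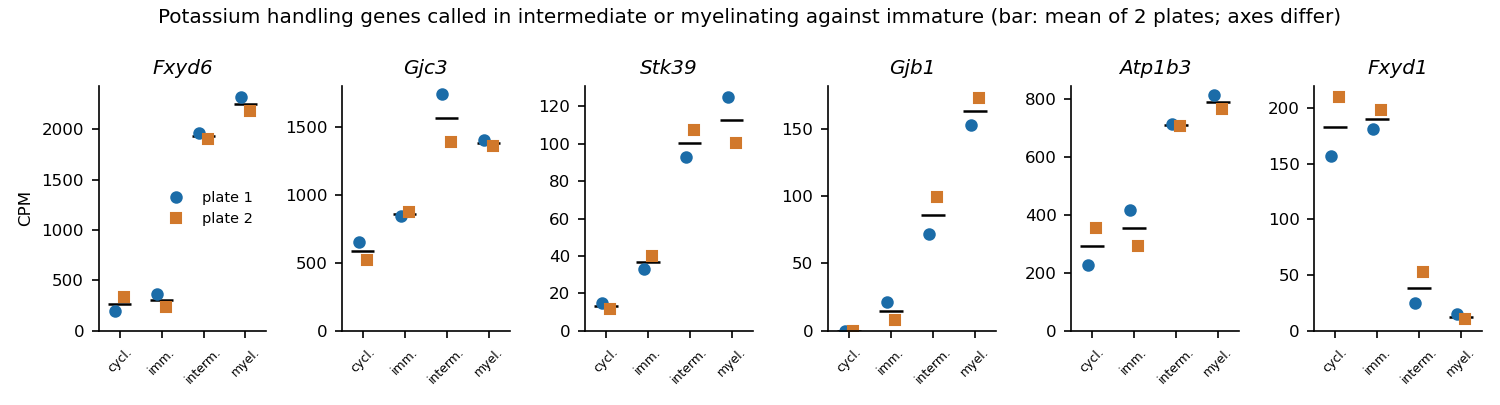
Levels (vertical axis, CPM, axes differ between genes) of the 6 potassium handling genes called in intermediate or myelinating against immature cells, with 1 point per plate and a bar at the mean. Fxyd6 goes from 368 and 236 in immature to 2325 and 2183 in myelinating cells, and Fxyd1 from 181 and 199 to 14.6 and 10.1.

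Shown are the promoters of the 3 members called in myelinating against immature cells, all lower in myelinating cells. That of Kcnk1, which was not called, is added. Kcnk1 had the highest fitted change in the opposite direction among the 10 members of highest level. The 250 bases before the RefSeq start (GRCm38.p6) were taken, and 69 of the 94 members were matched. Searched on both strands were ACAAAG, the core of Sox sites, GTGGGCG, a core of Egr sites, and GGAATG, the core of Tead sites, named for factor families that act in Schwann cells. Capitals mark a match. Kcna6 lies at chr6:126740675-126740924 (minus strand), Kcnh8 at chr17:52602459-52602708, Kcnn4 at chr7:24370013-24370262 and Kcnk1 at chr8:125994852-125995101 (plus strand).
Kcna6: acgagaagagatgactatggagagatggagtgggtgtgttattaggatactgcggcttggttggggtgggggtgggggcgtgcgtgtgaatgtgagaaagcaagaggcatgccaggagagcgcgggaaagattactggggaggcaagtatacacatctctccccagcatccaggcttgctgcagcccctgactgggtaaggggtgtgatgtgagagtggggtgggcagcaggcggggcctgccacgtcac
Kcnh8: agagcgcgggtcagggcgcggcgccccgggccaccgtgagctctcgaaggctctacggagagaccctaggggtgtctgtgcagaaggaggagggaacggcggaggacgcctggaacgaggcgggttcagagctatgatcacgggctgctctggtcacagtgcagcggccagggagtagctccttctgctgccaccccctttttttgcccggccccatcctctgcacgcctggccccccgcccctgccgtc
Kcnn4: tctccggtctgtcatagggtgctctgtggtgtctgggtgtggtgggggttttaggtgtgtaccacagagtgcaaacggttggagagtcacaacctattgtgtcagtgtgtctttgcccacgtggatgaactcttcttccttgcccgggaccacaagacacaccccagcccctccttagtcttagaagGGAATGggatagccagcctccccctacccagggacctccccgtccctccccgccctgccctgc
Kcnk1: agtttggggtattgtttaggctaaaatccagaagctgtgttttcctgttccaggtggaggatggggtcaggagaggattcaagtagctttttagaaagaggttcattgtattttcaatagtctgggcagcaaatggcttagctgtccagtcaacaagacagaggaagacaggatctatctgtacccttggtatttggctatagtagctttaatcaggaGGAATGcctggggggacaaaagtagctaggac
Kcnn4 and Kcnk1 each held 1 Tead match and the promoters of Kcna6 and Kcnh8 held none of the 3 motifs. Among all 32851 promoters of this length 12.6% held a Tead, 16.5% a Sox and 7.02% an Egr match, and among the 94 promoters listed for the 69 matched members 14.9%, 10.6% and 8.51% did. A match is a run of letters and not a measured site.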

How the data were processed

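RNA was measured in 768 wells, of which 655 entered the comparisons. Values in the deposited table are unnormalised counts of reads, 1 column a well, as the authors made them. The methods of the study name STAR, featureCounts and a human genome build, whereas the submitters' processing notes name STAR 2.6.1c, featureCounts and GRCm38.p5, and the identifiers are of mouse. Symbols, coordinates and exon lengths were taken from GENCODE vM21 (GRCm38), which matched 25587 of 25700 rows. The other 113 rows held 0.0916% of the reads. It is not the annotation used for counting. The members, the lists and the state borders were chosen with earlier results of these data known.

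Raw counts were summed per plate and state and fitted with edgeR 4.0.16 in R 4.3.3 (quasi-likelihood test, TMM scaling, filterByExpr, all 4 states in 1 fit, Benjamini-Hochberg adjustment over 13904 genes, threshold 0.05). SE was derived from the log2 change and its quasi-likelihood F statistic. For single plates, log2 changes of plain CPM were taken after adding 0.5. The fit was run on simulated sums drawn from its own estimates of the spread. Such sums cannot show how the fit behaves where most reads come from single wells. No doublet caller was run. Shares have exact Clopper-Pearson intervals at 95%, and reads without molecular identifiers are not independent molecules, so intervals and limits cover counting error only.

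Named were members called in any comparison, the 10 members of highest mean CPM per kb, 14 members by prior knowledge and the handling genes called in intermediate or myelinating against immature cells. Kcnh2, Kcnk13 and other members given by their read totals were named after their values were seen. Results of some genes are not reported here. The plate numbers pair the sums, since states of a plate come from the same pooled animals. Over 1976 genes, deviations from the state means had correlations between -0.0224 and 0.187 in the 6 state pairs. Alternatives were RLE size factors, DESeq2 1.42.0, no filter, the plate as a block, each sum left out, a minimum of 2500 genes, thinning, other state borders, corner wells kept and the highest well left out. Leaving out plate columns 8 and 16, where wells held fewer genes, was chosen after seeing the data.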

Additional observations from a re-analysis of the deposited data

Results flagged for a closer look

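Wells outside the comparisons also held reads of potassium channel genes, above the limit of 3 counts. The 8 corner wells, of which 4 reached the gene minimum, held 63 such reads of 4 genes, or 397 CPM, beside 725 CPM in the wells used. Of these reads 40 were of Kcnj8, which had no read in any of the 655 wells used. The 105 wells outside the corners that were below the gene minimum held 989 reads of 22 members, or 136 CPM. Of these, 513 were of Kcnk1 and 212 of Kcnmb4. No control wells were labelled as such, and the source of these reads was not tested.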

How the results depend on the processing

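The number of members called depended on the tool and filter. For cycling against immature cells it was 0, with 2 under DESeq2 and 1 with the highest well left out. For intermediate against immature cells it was 0, with 5 under DESeq2, 5 with no filter, 4 in thinned wells and 1 each with RLE factors, cycling set from 2 genes, the highest well left out and columns 8 and 16 left out. For myelinating against intermediate cells it was 0, with 3 under DESeq2 and 3 with no filter. For myelinating against immature cells it was 3, with 7 under DESeq2 and 6 with no filter. Over the fits that left out single sums the counts ran from 0 to 3, 0 to 1 and 1 to 5 in the last 3 comparisons. The sums behind these extremes were either cycling sum for the 3 calls of intermediate against immature cells, intermediate plate 1 for the 1 call of myelinating against intermediate cells, cycling plate 2 for 5 and immature plate 2 and myelinating plate 2 for 1 in the last. The plate as replicate block gave 0, 0, 0 and 3 members, the same genes as without it.

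For the handling list the 2 calls of cycling against immature cells became 4 under DESeq2, 4 with no filter, 4 with the highest well left out and 1 with cycling set from 2 genes, where Gjb1 reversed to 0.52. Over the left-out sums they ran from 1 (either immature sum) to 4 (cycling plate 2). The 5 calls of intermediate against immature cells became 9 under DESeq2, 3 with the replicate block and 3 with the Pmp22 border at 20000 CPM, and ran from 1 (immature plate 2 or intermediate plate 1) to 8 (either cycling sum). The 0 calls of myelinating against intermediate cells became 3 under DESeq2 and 1 with no filter, and the 6 of myelinating against immature cells became 11 under DESeq2 and ran from 5 (either immature sum or myelinating plate 1) to 10 (either cycling sum). The causes were not tested. Of 399 repeats of 19 changes of members under these alternatives, 352 stayed on the same side of the threshold. A further 39 newly passed, 8 no longer passed, and none changed sign. Only 3 of the 19 changes were calls, so most repeats were of changes that had not passed. The 8 losses were 4 each of the calls of Kcnh8 and Kcnn4. The changes of Kcna1 and Kcnj10 from immature to myelinating cells were not among the 19. Detection shares from 1 read instead of 5 moved by more than the spread between plates in 27 of 40 cases. Members with few reads cannot be told from absent at this depth.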
